A study of Mus musculus with 15 samples.

Results

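At postnatal day 14, striatum of C57Bl/6J pups was compared by RNA sequencing between pups exposed to titanium dioxide (TiO2) nanoparticles before birth and control pups. The comparison rests on 8 of the 15 libraries of the series, 4 labelled titanium dioxide and 4 labelled untreated. The other libraries come from paraquat exposure (3) and from exposure to the mixture of paraquat and TiO2 (4). The mothers were exposed to aerosols while they carried the pups, and the series asks whether this alters the developing brain. The sources used here give neither the dose, the particle size and the days of exposure nor what the control mothers inhaled. The labels do not say whether libraries came from separate animals or litters. P-values therefore measure only the spread between these libraries, which may be partly technical.

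TiO2 nanoparticles are a mineral powder used as a white pigment and in coatings, and they can be inhaled. The striatum is the input nucleus of the basal ganglia, which select and scale movement. Most of its neurons are medium spiny neurons, which release GABA and receive glutamate from cortex and thalamus and dopamine from the midbrain. Those of the direct pathway carry dopamine D1 receptors and those of the indirect pathway D2 receptors. In mouse pups of this age striatal synapses, ion channels and myelin are still being built.

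Values are normalised read counts per gene, that is, reads divided by a size factor of the library. The 8 libraries held 8690925 to 9804609 reads, with 0 to 4 genes at 0 in a library, and 3 reads corresponded to 2.95 to 3.19 units. Library TiO2 3 stood apart. Its deviations from the mean of all libraries correlated with transcript GC content at 0.452 over genes, against −0.118 to 0.190 in the other TiO2 libraries and −0.378 to 0.0695 in control libraries. It also had the lowest share of mitochondrial reads, 16.2%, against 19.2% to 20.6% in the other TiO2 libraries and 19.7% to 21.8% in control libraries. Xist, the RNA of the inactive X chromosome, was at 24096 and 22301 in TiO2 1 and 2 and at 14892 and 10604 in control 1 and 3, and at or below 76.3 in the others, so each group held 2 libraries of either kind and more than 1 pup. Ppp1r1b, the dopamine signalling protein DARPP-32 that defines medium spiny neurons, was at 10574, 10543, 11828 and 9176 in TiO2 and at 9504, 11407, 9135 and 9663 in control. Markers of the choroid plexus, which lies next to the striatum, summed to 156 to 184 in TiO2 and 147 to 222 in control over 5 genes. The 12 markers of cortical glutamatergic neurons summed to 3172 to 4642 in TiO2 and 2576 to 3999 in control, and none of either list was called. Of these cortical markers 10 had a positive log2 difference, at a median of 0.31 (0.40 and 1 called higher with the GC correction), against −0.01 over all genes tested. Their part in the results below was not tested.

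Of 15556 genes tested, 996 (6.40%) differed between TiO2 and control at an adjusted p under 0.05 by limma with Benjamini-Hochberg adjustment, the threshold for every call below. Of these, 669 (4.30%) were higher and 327 (2.10%) lower in TiO2. Most differences were small. The median size of a called difference was 0.45 on the log2 scale for rises and 0.37 for falls, and 41 rises and 18 falls exceeded 2-fold. In 1950 genes (12.5%) the 4 libraries of either group lay entirely above those of the other, among them 610 of the rises and 252 of the falls. Scaling each library to its total without mitochondrial genes gave 1111 calls, 607 higher and 504 lower. The count was lowest without TiO2 3, at 467 (365 higher and 102 lower), and highest without control 2, at 1397 (764 and 633). Without TiO2 2, control 1 or control 4 it was 536, 502 or 582.

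**Figure D1:**
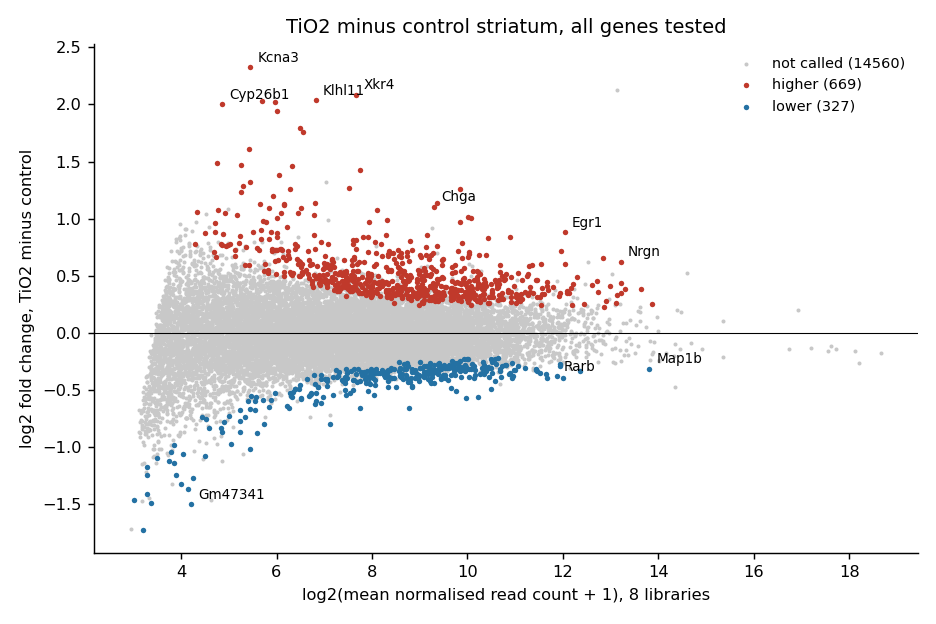
Each point is 1 of 15556 genes, with the log2 of the mean normalised read count over the 8 libraries on the x axis and the log2 fold change, TiO2 minus control, on the y axis. Red marks the 669 genes called higher and blue the 327 called lower. Rises called reach 2.33 (Kcna3), and the falls called below −1 lie among genes with few reads.

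Calls followed the GC content of the transcripts. The genes called higher had a median GC content of 54.3%, those called lower 43.5% and all genes tested 49.2%. When genes were split by GC content into 5 bins of equal size, the highest bin had 287 of 3111 called higher and 0 lower, whereas the lowest bin had 65 of 3112 called higher and 164 lower. After a smooth GC trend had been removed from each library, the highest bin held 128 rises and 41 falls and the lowest 192 and 58. That correction called 907 genes, 643 higher and 264 lower, of which 616 had been called without it. Without TiO2 3 the corrected fit called 544 genes, 421 higher and 123 lower. The part of GC content and of TiO2 3 in each group of genes was not tested. Counts with the GC correction or without TiO2 3 stand in brackets or beside most groups below. They are read against all genes in the same setting. Those were 643 higher and 264 lower of 15556 with the GC correction, and 365 and 102 of 15553 without TiO2 3. Groups without such counts were not shown to be unaffected. Counts with all libraries and no correction are read against the 4.30% higher and 2.10% lower of all genes. Called genes also had more reads, at a median value of 399 for rises and 432 for falls, against 160 for all genes tested. Among 11611 genes with a mean of at least 50, 728 were called higher and 363 lower. Shares of groups were not adjusted for read level, so lists of well-read genes can exceed those of all genes for that reason.

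**Figure D2:**
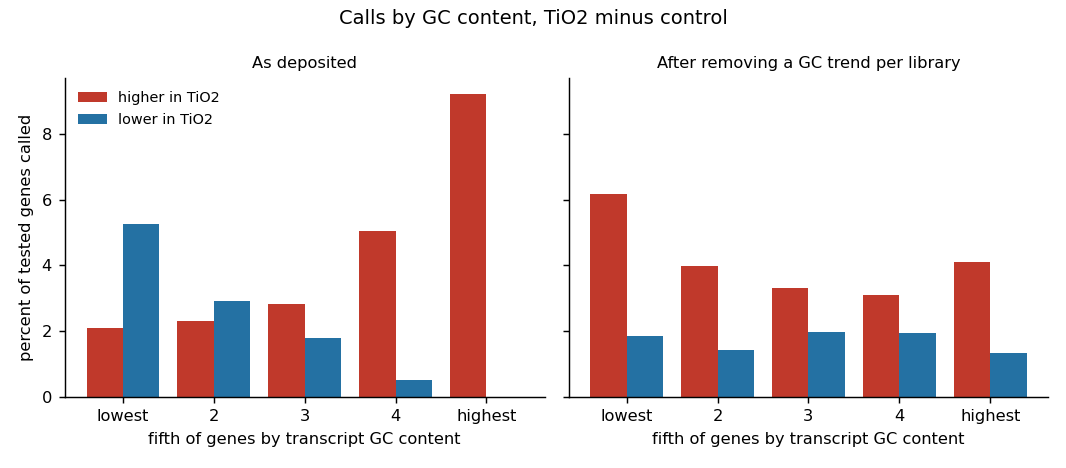
Bars give the percent of tested genes called higher (red) or lower (blue) in TiO2 in each of 5 bins of transcript GC content, in the values as deposited (left) and after removal of a GC trend per library (right). In the deposited values rises climb to 9.23% and falls drop to 0% in the highest bin, and after the correction rises make up 3.09% to 6.17% of every bin.

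Of the 12 largest rises 5 encode membrane proteins. Kcna3, a voltage-gated potassium channel, was at 75.7, 71.2, 69.2 and 64.6 in TiO2 libraries, against 30.0, 10.3, 10.6 and 8.85 in control libraries. All 4 TiO2 libraries lay above every control library, and control 1 stood above the other 3 (log2 2.33 ± 0.27, adjusted p = 1.31e-05). Xkr4, a phospholipid scramblase of the plasma membrane, was at 341, 293, 332 and 337 in TiO2 libraries, against 92.2, 57.8, 91.5 and 67.8 in control libraries. No library of either group came near the other (log2 2.09 ± 0.15, adjusted p = 3.5e-08). Oprm1, the mu opioid receptor through which endogenous opioid peptides and morphine act on striatal neurons, was at 103, 88.5, 104 and 100.4 in TiO2 libraries, against 30.0, 21.7, 31.9 and 14.7 in control libraries. No library overlapped (log2 2.02 ± 0.22, adjusted p = 3.84e-06). Nkain3, which encodes a partner of the sodium-potassium pump, was at 104, 106, 110.4 and 82.5 in TiO2 libraries, against 30.0, 21.7, 23.4 and 26.5 in control libraries (log2 1.95 ± 0.16, adjusted p = 6.14e-08). Slc9a7, a sodium-proton exchanger of the Golgi and endosomes, was at 163, 129, 156 and 126 in TiO2 libraries, against 53.9, 44.4, 38.3 and 32.4 in control libraries (log2 1.76 ± 0.16, adjusted p = 1.78e-07). Both genes were separated in every library.

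Several of the other large rises encode regulators of proteins and transcription. Klhl11, a Kelch-domain adaptor of a ubiquitin ligase, was at 184, 174, 173 and 184 in TiO2 libraries, against 78.7, 31.0, 37.2 and 36.4 in control libraries (log2 2.04 ± 0.19, adjusted p = 9.72e-07). Lcor, a corepressor of nuclear receptors, was at 123, 168, 133 and 124 in TiO2 libraries, against 55.9, 38.2, 28.7 and 36.4 in control libraries (log2 1.79 ± 0.18, adjusted p = 1.25e-06). Cyp26b1, which breaks down retinoic acid, was at 25.9, 51.9, 54.2 and 48.7 in TiO2 libraries, against 16.6, 9.29, 8.51 and 7.86 in control libraries, with its lowest TiO2 value in library 1 and its highest control value in library 1 (log2 2.00 ± 0.32, adjusted p = 0.000968). The last 4 of the 12 largest rises carry provisional gene names. They were Gm38020 at chrX:103576426-103581101 (log2 2.03 ± 0.27), Gm44846 at chr7:88119158-88122400 (log2 1.61 ± 0.35), Gm9517 at chr12:113629994-113630867 (log2 1.48 ± 0.29) and Gm38394 at chr1:133619940-133661318 (log2 1.47 ± 0.22). Coordinates are on GRCm38, the assembly also called mm10. Each of the 12 kept its call without any 1 library, with the GC correction and under the other alternatives tried, where the highest adjusted p of any, that of Gm44846, was 0.0492.

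**Figure D3:**
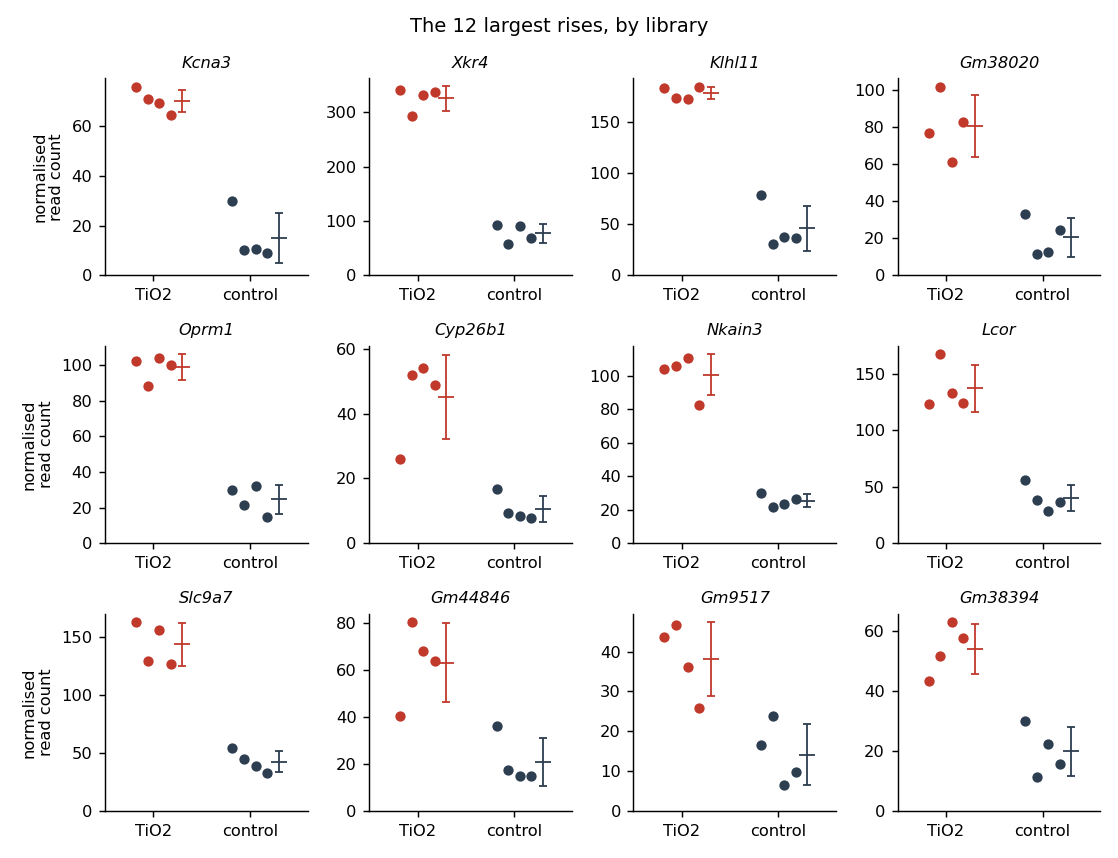
Each panel gives the normalised read count of 1 of the 12 largest rises in the 4 TiO2 libraries (red, left) and the 4 control libraries (dark, right), with the mean and SD beside the points; libraries 1 to 4 run from left to right. All TiO2 points lie above all control points in every panel, and control 1 is the highest control library for Kcna3, Klhl11 and Cyp26b1, among others.

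The largest falls were mostly in sparsely read RNAs of unknown function. Of the 12 largest among genes that averaged 1 CPM or more, 8 are annotated as TEC, a GENCODE class of transcribed regions still to be experimentally checked, 2 as pseudogenes, and 2 are protein coding genes. Gm47341 at chr10:119462350-119464521 was at 6.23, 12.2, 9.03 and 6.96 in TiO2 libraries, against 24.9, 37.2, 17.0 and 26.5 in control libraries (log2 −1.50 ± 0.35, adjusted p = 0.0106). Gm18441, a processed pseudogene at chr12:118732439-118733055, was at 8.30, 9.15, 11.0 and 11.9 in TiO2 libraries, against 21.8, 26.8, 30.9 and 23.6 in control libraries (log2 −1.27 ± 0.24, adjusted p = 0.00265). Both were below every control library in all 4 TiO2 libraries, and both kept their calls under all alternatives that tested them, which leaves out the filter at a mean of 50. Calls of the other 10 ended without any of 5 to 8 of the 8 libraries in turn, with adjusted p up to 0.152. Among them Cenpu, a centromere protein, was at 4.15, 9.15, 9.03 and 10.9 in TiO2 libraries, against 16.6, 14.4, 20.2 and 18.7 in control libraries, and Trim34a, a member of the tripartite motif family, was at 11.4, 12.2, 7.02 and 7.96 in TiO2 libraries, against 14.5, 22.7, 19.2 and 29.5 in control libraries.

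Over all calls the TEC class made up 22 of the 327 falls (6.73%) and 7 of the 669 rises (1.05%), against 356 of the 15556 genes tested (2.29%). Of the 22 falls 14 overlapped a protein-coding gene on the same strand, all 14 within introns only, and none of those host genes was called. Of all 356 such genes 206 (57.9%) lay within introns of a protein-coding gene in this way. Gm48482 at chr12:14128116-14130648 was the fall with the smallest p among genes that are not protein coding, at 110.0, 102, 83.3 and 105 in TiO2 libraries, against 209, 161, 169 and 160.2 in control libraries (log2 −0.80 ± 0.13, adjusted p = 0.000468). In the other direction Gm43843, which lies in Cttnbp2 at chr6:18429659-18431245, was at 273, 226, 267 and 272 in TiO2 libraries, against 137, 98.0, 98.9 and 97.3 in control libraries (log2 1.27 ± 0.12, adjusted p = 4.96e-07), while Cttnbp2 itself was at 1445 ± 114 in TiO2 and 1332 ± 153 in control (log2 0.12 ± 0.08, adjusted p = 0.405; a gene chosen after its values were seen). The pseudogenes Ccdc50-ps (log2 1.29 ± 0.20), Gm6493 (1.09 ± 0.17), Gm10169 (0.78 ± 0.11) and AC114990.1 (0.73 ± 0.12) and the antisense RNA Gm45606 (1.13 ± 0.17) also rose. Reads of a pseudogene can belong to its parent gene, and reads of Gm45606 to Slc43a2 on the other strand, since the sources used here do not say whether strand was used in counting. The same limit holds for genes whose exons overlap those of another protein-coding gene on the other strand. Among them were Oprm1, Rab3a, Rarb, Tuba4a, Syvn1, Grn, Cryab, Ash1l, Mbd5, Cenpu, Dnaja1 and Ccpg1.

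Kcna3 was not the only ion channel gene called. Of 36 voltage-gated potassium channel genes, which set how fast neurons repolarise, 7 rose and 0 fell, at a median log2 difference of 0.20 against −0.01 for all genes tested. Kcng3, a modifier subunit, was at 68.5, 45.8, 75.3 and 55.7 in TiO2 libraries, against 35.2, 19.6, 22.3 and 19.7 in control libraries (log2 1.32 ± 0.22, adjusted p = 0.000768). Kcna1, a channel of axons, was at 722, 804, 702 and 630.5 in TiO2 libraries, against 679, 396, 413 and 466 in control libraries, with control 1 inside the TiO2 range (log2 0.58 ± 0.13, adjusted p = 0.0131). Kctd16, an auxiliary subunit of GABA-B receptors listed with the potassium channel accessory subunits, was at 335, 298, 367 and 296 in TiO2 libraries, against 186, 140.4, 153 and 183 in control libraries (log2 0.97 ± 0.12, adjusted p = 1.34e-05). Of its list of 29 genes 3 rose and 1 fell (1 higher and 0 lower with the GC correction, 1 higher and 0 lower without TiO2 3). With the GC correction 5 voltage-gated channel genes were called higher and 1 lower, and 2 higher without TiO2 3. The call of Kcna1 ended without TiO2 2 or TiO2 3 and with the block and GC correction and with the GC correction without TiO2 3 (adjusted p 0.0506 to 0.0965, and 0.000111 to 0.0965 over all alternatives).

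Among 23 calcium channel genes 6 rose and 1 fell. Of the rises 5 were genes of the gamma family, whose neuronal members help carry AMPA receptors to the synapse. Cacng7 was at 959.8, 1025, 1013 and 922 in TiO2 libraries, against 658, 717, 743 and 775 in control libraries, with no overlap (log2 0.44 ± 0.09, adjusted p = 0.00412), and Cacng3 and Cacng8 had log2 differences of 0.52 ± 0.13 and 0.48 ± 0.12. Cacnb1, an auxiliary beta subunit, was at 1479.6, 1396, 1599 and 1295 in TiO2 libraries, against 1068, 1161, 1089 and 1086 in control libraries (log2 0.39 ± 0.09, adjusted p = 0.0102). With the GC correction 4 members were called higher and 1 lower, and 2 higher without TiO2 3. Of 16 cyclic nucleotide-gated and TRP channel genes, both calls were TRP channels (2 higher with the GC correction, 2 higher without TiO2 3). Trpc5 was at 80.9, 82.4, 76.3 and 94.5 in TiO2 libraries, against 51.8, 32.0, 37.2 and 26.5 in control libraries (log2 1.19 ± 0.21, adjusted p = 0.00144) and Trpm3 at 626 ± 32.8 in TiO2 and 456 ± 38.1 in control (SD, n = 4 each; log2 0.46 ± 0.09). The call of Cacng3 ended without TiO2 2, TiO2 3 or control 1 and with the GC correction, with the block and GC correction and with the GC correction without TiO2 3 (adjusted p 0.0514 to 0.118, and 0.00125 to 0.118 over all alternatives). The call of Cacng8 ended without TiO2 3 or control 1 and with the GC correction, with the block and GC correction and with the GC correction without TiO2 3 (adjusted p 0.0561 to 0.189, and 0.00571 to 0.189 over all alternatives). The call of Cacnb1 ended with the GC correction without TiO2 3 (adjusted p 0.0726, and 0.00142 to 0.0726 over all alternatives).

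Among neurotransmitter receptors 1 or 2 members of each family below were called. Gabrb2, the beta 2 subunit of GABA-A receptors at chr11:42419757-42629028, was at 879, 955, 937 and 841 in TiO2 libraries, against 522, 313, 390.5 and 446 in control libraries. All TiO2 libraries lay far above all controls (log2 1.13 ± 0.12, adjusted p = 3.85e-06), and it was the only one of 14 GABA-A subunits called. With the GC correction 3 subunits were called higher. Chrna4, a nicotinic acetylcholine receptor subunit that on dopamine terminals raises dopamine release, was at 211, 267, 275 and 242 in TiO2 libraries, against 126, 144, 154 and 137 in control libraries (log2 0.82 ± 0.13, adjusted p = 0.000393). It was the only one called of 23 acetylcholine and serotonin receptor genes, a share close to the 4.30% of all genes (2 higher with the GC correction, 1 without TiO2 3). Grm3, a metabotropic glutamate receptor of presynaptic terminals and astrocytes, was at 1179, 1223, 1406 and 1133 in TiO2 libraries, against 945, 977, 959 and 879.8 in control libraries (log2 0.39 ± 0.08, adjusted p = 0.00415). Of 9 metabotropic glutamate and GABA-B receptor genes it was the only one called (2 higher with the GC correction, 1 without TiO2 3). Of 17 ionotropic glutamate receptor subunits 1 rose, Grin1 (log2 0.32 ± 0.09), and 1 fell, Gria3 (−0.36 ± 0.09). With the GC correction 0 of these subunits were called, and likewise 0 without TiO2 3. The call of Grin1 ended without TiO2 1, TiO2 2, TiO2 3, control 1, control 3 or control 4 and with the GC correction, with the block and GC correction and with the GC correction without TiO2 3 (adjusted p 0.0542 to 0.231, and 0.00789 to 0.231 over all alternatives). The call of Gria3 ended without TiO2 1, TiO2 2, TiO2 3 or control 4 and with the GC correction, with the block and GC correction and with the GC correction without TiO2 3 (adjusted p 0.0514 to 0.304, and 0.00324 to 0.304 over all alternatives). Gprin3, a neuronal protein that binds activated G proteins, was at 1272, 1301, 1152 and 1395 in TiO2 libraries, against 698, 423, 471 and 583 in control libraries (log2 1.26 ± 0.15, adjusted p = 7.48e-05). In its list of 21 cannabinoid, adenosine and orphan G protein receptor genes 2 rose (1 with the GC correction, 1 without TiO2 3).

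Peptide and secretory genes included Chga, the granule protein chromogranin A, at 776, 954, 819 and 908 in TiO2 libraries, against 402, 422, 418 and 359.8 in control libraries (log2 1.11 ± 0.12, adjusted p = 3.84e-06). No library of either group came near the other. Of 19 genes of neuropeptides and granins 3 rose and 1 fell (2 higher and 1 lower with the GC correction, 1 higher and 1 lower without TiO2 3). The fall was Tac1, the substance P precursor of direct-pathway neurons, at 3213, 2824, 2356 and 2895 in TiO2 libraries, against 4226, 3474, 3396 and 3744 in control libraries (log2 −0.40 ± 0.09, adjusted p = 0.00979). Penk, the enkephalin precursor of indirect-pathway neurons, was at 15123, 15828, 13352 and 15801 in TiO2 libraries, against 16636, 20375, 15908 and 18780.0 in control libraries. Its groups did not overlap, but it was not called (log2 −0.25 ± 0.09, adjusted p = 0.103). Pdyn, the dynorphin precursor, was at 535 ± 84.7 in TiO2 and 565 ± 65.2 in control (SD, n = 4 each), with overlapping libraries. Of 7 opioid receptor and peptide genes Oprm1 alone was called. The call of Tac1 ended with the GC correction without TiO2 3 (adjusted p 0.0564, and 0.00173 to 0.0564 over all alternatives).

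Markers of the medium spiny neurons themselves included rises and falls. Drd1 was at 3157, 2724, 2719 and 3001 in TiO2 libraries, against 3036, 2855, 3169 and 3193 in control libraries, overlapping (log2 −0.08 ± 0.07, adjusted p = 0.529). Drd2 was at 2965, 2787, 2965 and 2860.0 in TiO2 libraries, against 2255, 2452, 2723 and 2749 in control libraries, without overlap but not called (log2 0.19 ± 0.09, adjusted p = 0.184). Adora2a, the adenosine receptor of indirect-pathway neurons, was at 2980.2 ± 256 in TiO2 and 2650.2 ± 198 in control (log2 0.17 ± 0.08, adjusted p = 0.233), and Ppp1r1b had a log2 difference of 0.08 ± 0.10. Of 25 general markers 3 rose and 2 fell (2 higher and 3 lower with the GC correction, 2 higher and 1 lower without TiO2 3), a share above that of all genes tested in each direction. Syndig1l, a synaptic membrane protein enriched in striatum, was at 3334, 3219, 3285 and 3089.8 in TiO2 libraries, against 2163, 2479.9, 2264 and 2464 in control libraries (log2 0.47 ± 0.09, adjusted p = 0.00394). Rarb, the retinoic acid receptor needed for striatal neuron identity, was at 3493, 3242, 2924 and 3379 in TiO2 libraries, against 4361, 3924, 4200.3 and 4454 in control libraries. Here all 4 TiO2 libraries lay below every control (log2 −0.38 ± 0.07, adjusted p = 0.00258). In the list of 16 retinoic acid genes Cyp26b1 rose and Rarb and Rdh10 fell, Rdh10, which makes retinal from retinol, by log2 −0.32 ± 0.10. Of that list 1 was called higher and 1 lower with the GC correction, and 1 higher and 1 lower without TiO2 3. The call of Rdh10 ended without TiO2 1, TiO2 2, TiO2 3, TiO2 4, control 1, control 3 or control 4 and in a fit of the 8 libraries alone, with the GC correction, with the block and GC correction and with the GC correction without TiO2 3 (adjusted p 0.0568 to 0.123, and 0.0313 to 0.123 over all alternatives). Of 11 direct-pathway markers 1 fell, Tac1, and 2 had a positive log2 difference, at a median of −0.11. None of the 10 indirect-pathway markers and none of 13 interneuron markers was called. Of the interneuron genes, Chat of cholinergic neurons was at 71.6 ± 17.7 in TiO2 and 67.1 ± 11.1 in control, and Sst of somatostatin neurons at 2586 ± 131 in TiO2 and 2292 ± 274 in control. In bulk tissue, fewer cells of a type and less RNA per cell cannot be told apart.

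Of 15 genes of the dopamine system 1 rose and 2 fell (1 higher and 0 lower with the GC correction, 0 higher and 0 lower without TiO2 3). Th, the rate-limiting enzyme of dopamine synthesis, whose RNA lies mainly in the midbrain, was at 91.3, 97.6, 107 and 91.5 in TiO2 libraries, against 91.2, 112, 104 and 88.5 in control libraries, with overlapping libraries (log2 −0.03 ± 0.15, adjusted p = 0.933). Maob, a glial monoamine oxidase, was at 94.1 ± 20.8 in TiO2 and 127 ± 15.9 in control (SD, n = 4 each; log2 −0.45 ± 0.14). The call of Maob ended without TiO2 1, TiO2 2, TiO2 3, control 1, control 2, control 3 or control 4 and in a fit of the 8 libraries alone, by voom, by edgeR, by edgeR with DESeq2 size factors, with the GC correction, with the block and GC correction and with the GC correction without TiO2 3 (adjusted p 0.0506 to 0.22, and 0.00744 to 0.22 over all alternatives).

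Several genes of the presynaptic terminal were called. Of 34 genes of synaptic vesicle release 6 rose and 0 fell, at a median log2 difference of 0.16. Rab3a, the GTPase of synaptic vesicles, was at 2966, 3001, 3132 and 2908 in TiO2 libraries, against 1777, 1945, 2226 and 2068 in control libraries. The groups were well apart (log2 0.59 ± 0.08, adjusted p = 9.18e-05). Rab3b, its close relative, was at 1354, 1252, 1375 and 1256 in TiO2 libraries, against 825, 780.2, 1053 and 959 in control libraries (log2 0.54 ± 0.09, adjusted p = 0.00066). Pclo, the scaffold protein piccolo of the release site, was at 3204, 3047, 3079 and 3097 in TiO2 libraries, against 2584, 2209.5, 2567 and 2666 in control libraries (log2 0.31 ± 0.07, adjusted p = 0.0102). The GC correction called 6 of the list higher, and 4 were called without TiO2 3.

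On the receiving side, Nrgn, the calmodulin-binding protein neurogranin of dendritic spines, was at 11518, 10899.7, 11494 and 11848 in TiO2 libraries, against 6181, 7229, 7968 and 8577 in control libraries (log2 0.62 ± 0.12, adjusted p = 0.00415). Of 25 postsynaptic scaffold genes 2 rose (2 higher and 0 lower with the GC correction, 1 higher and 0 lower without TiO2 3), Dlgap2 (log2 0.40 ± 0.08, adjusted p = 0.00504) and Iqsec1 (0.33 ± 0.08). Of 43 synaptic adhesion genes 4 rose and 1 fell (3 higher and 1 lower with the GC correction, 1 higher and 0 lower without TiO2 3). Cntnap5b, a contactin-associated protein, was at 143, 159, 145 and 151 in TiO2 libraries, against 120.2, 37.2, 61.7 and 73.7 in control libraries, where control 1 was nearest to TiO2 (log2 1.14 ± 0.26, adjusted p = 0.0158). Lrfn3, an adhesion protein of synapses, rose by 0.37 ± 0.08 on the log2 scale. Of 83 cadherin and protocadherin genes 4 rose (4.82% against the 4.30% of all genes; 9 higher and 0 lower with the GC correction, 2 higher and 0 lower without TiO2 3), among them Pcdh11x, an X-linked protocadherin, at 1062, 870.3, 876 and 1111 in TiO2 libraries, against 767, 534, 657 and 682 in control libraries (log2 0.57 ± 0.12, adjusted p = 0.0083). Of 64 axon guidance genes 3 rose (4.69% against the 4.30% of all genes; 3 higher and 0 lower with the GC correction, 1 higher and 0 lower without TiO2 3), the ephrin receptor gene Epha6 with the smallest p, at 122, 148, 155 and 135 in TiO2 libraries, against 89.1, 75.3, 63.8 and 80.6 in control libraries (log2 0.86 ± 0.15, adjusted p = 0.0011). The call of Dlgap2 ended with the GC correction without TiO2 3 (adjusted p 0.0591, and 0.000268 to 0.0591 over all alternatives). The call of Iqsec1 ended without TiO2 3, control 1 or control 4 and with the GC correction without TiO2 3 (adjusted p 0.051 to 0.0876, and 0.00404 to 0.0876 over all alternatives). The call of Cntnap5b ended without TiO2 3 (adjusted p 0.0571, and 0.000115 to 0.0571 over all alternatives). The call of Lrfn3 ended with the GC correction, with the block and GC correction and with the GC correction without TiO2 3 (adjusted p 0.0611 to 0.0948, and 0.00119 to 0.0948 over all alternatives).

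**Figure D4:**
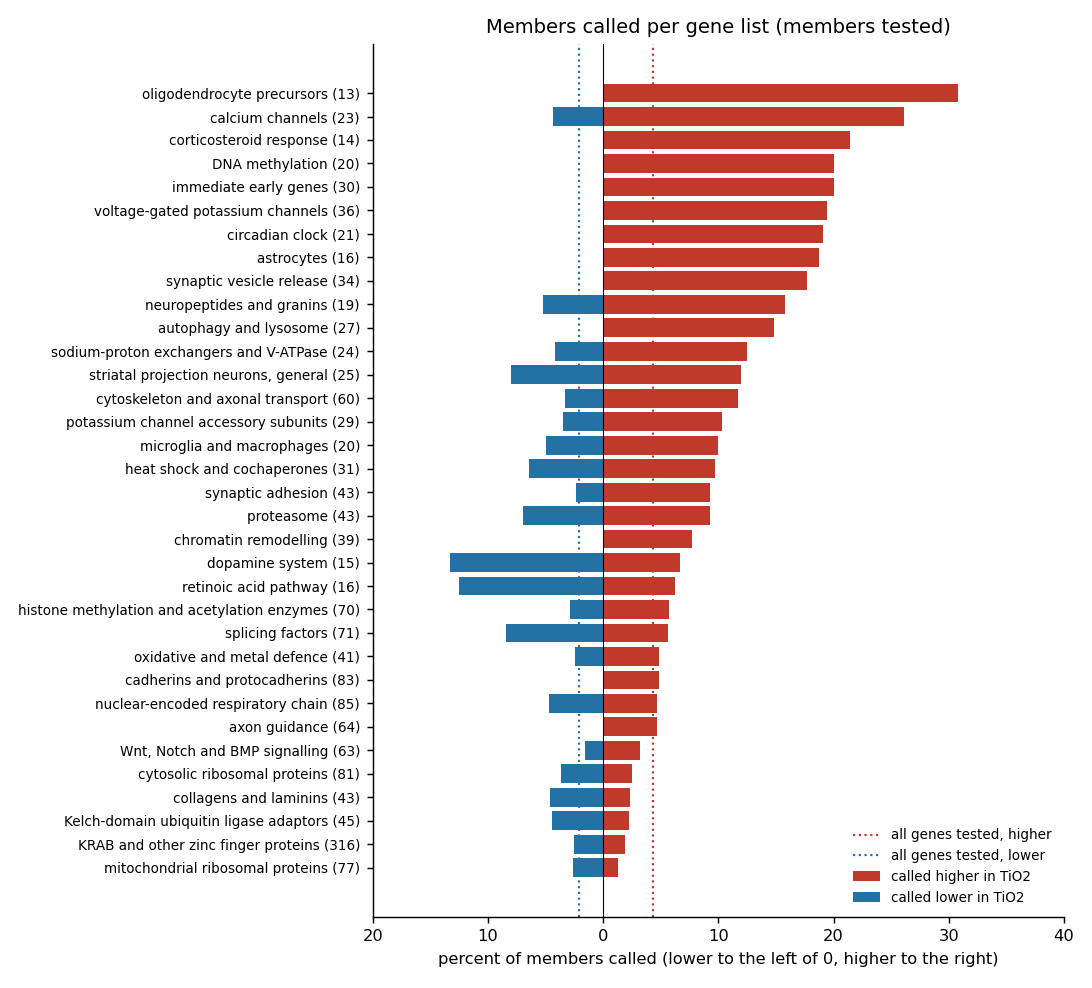
Bars give, for each gene list with at least 10 tested members and 3 called, the percent of members called higher in TiO2 (red, right of 0) and lower (blue, left of 0), with the number tested in brackets. Dotted lines mark the 4.30% and 2.10% of all genes tested; oligodendrocyte precursors (30.8%) and calcium channels (26.1%) have the highest shares of rises.

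Immediate early genes are switched on in neurons within minutes of activity. Of 30 such genes 6 rose and 0 fell. Egr1, a zinc finger transcription factor, was at 5272, 4742, 5657 and 6061 in TiO2 libraries, against 2376, 2829, 3127 and 3539.7 in control libraries (log2 0.88 ± 0.16, adjusted p = 0.00569). Every TiO2 library was above every control library. Per1, a clock gene that is also induced by activity and by glucocorticoids, was at 467, 416, 589 and 429 in TiO2 libraries, against 282, 349, 276 and 332 in control libraries (log2 0.61 ± 0.11, adjusted p = 0.00248). Egr2 was at 89.2, 64.1, 132 and 88.5 in TiO2 libraries, against 48.7, 55.7, 53.2 and 68.8 in control libraries, where TiO2 3 was far above the others and TiO2 2 lay within the control range (log2 0.68 ± 0.19, adjusted p = 0.0281). Fosl2 was at 230.3, 210.5, 338 and 262 in TiO2 libraries, against 168, 204, 170.2 and 189 in control libraries, again with TiO2 3 the highest (log2 0.49 ± 0.12, adjusted p = 0.016). The remaining 2 members called were Fos (log2 0.79 ± 0.22) and Egr4 (0.65 ± 0.18), named after their values were seen. Dusp5, a phosphatase that switches off ERK and is itself induced by ERK, was the only one of 20 MAP kinase feedback genes called, at 157, 158, 161 and 204 in TiO2 libraries, against 112, 107, 104 and 123 in control libraries (log2 0.59 ± 0.14, adjusted p = 0.011). With the GC correction 5 immediate early genes were called higher, 2 without TiO2 3, and 1 with both changes. Of the MAP kinase feedback genes 2 were called higher with the GC correction and 1 without TiO2 3. The call of Egr1 ended with the GC correction without TiO2 3 (adjusted p 0.0538, and 3.56e-05 to 0.0538 over all alternatives). The call of Egr2 ended without TiO2 1, TiO2 3, control 1 or control 3 and with the GC correction without TiO2 3 (adjusted p 0.0555 to 0.142, and 0.0107 to 0.142 over all alternatives). The call of Fosl2 ended without TiO2 3 or control 1 and with the GC correction without TiO2 3 (adjusted p 0.0606 to 0.0939, and 0.00468 to 0.0939 over all alternatives). The call of Fos ended without TiO2 3, TiO2 4, control 1 or control 3 and by voom, with the block and GC correction and with the GC correction without TiO2 3 (adjusted p 0.0593 to 0.125, and 0.0223 to 0.125 over all alternatives). The call of Egr4 ended without TiO2 1, TiO2 3, TiO2 4, control 1, control 2, control 3 or control 4 and scaled without mitochondrial genes, by voom, with the GC correction, with the replicate block, with the block and GC correction and with the GC correction without TiO2 3 (adjusted p 0.0526 to 0.217, and 0.00164 to 0.217 over all alternatives).

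The promoters of 3 of these genes are shown, chosen because they carry motifs of factors that neuronal activity switches on or of clock proteins. They hold the 250 bases before the RefSeq start on GRCm38.p6, 5′ to 3′ on the plus strand, from chr10:67537619-67537868 for Egr2, chr19:53528895-53529144 for Dusp5 and chr11:69098699-69098948 for Per1. Capitals mark the CArG box, which serum response factor binds, the short form TGACG of the cyclic AMP response element (CRE), which CREB binds, and the E-box CACGTG, which the clock proteins CLOCK and BMAL1 bind, searched on both strands.
Egr2: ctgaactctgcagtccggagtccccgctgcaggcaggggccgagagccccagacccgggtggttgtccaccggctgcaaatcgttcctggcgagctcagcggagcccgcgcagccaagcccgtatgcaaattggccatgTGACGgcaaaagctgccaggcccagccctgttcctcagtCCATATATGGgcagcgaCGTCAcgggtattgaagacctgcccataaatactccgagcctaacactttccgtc
Dusp5: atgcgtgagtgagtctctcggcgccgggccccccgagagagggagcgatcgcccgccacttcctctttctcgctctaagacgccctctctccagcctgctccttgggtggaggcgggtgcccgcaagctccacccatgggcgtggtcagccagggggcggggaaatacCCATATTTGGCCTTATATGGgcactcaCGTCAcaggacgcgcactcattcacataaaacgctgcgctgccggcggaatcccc
Per1: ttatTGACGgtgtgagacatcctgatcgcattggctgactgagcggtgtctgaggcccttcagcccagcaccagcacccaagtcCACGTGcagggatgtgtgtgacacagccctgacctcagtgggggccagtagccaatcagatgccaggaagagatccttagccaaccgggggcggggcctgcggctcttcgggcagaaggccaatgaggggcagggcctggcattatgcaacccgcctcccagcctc
Counting the base before the start as −1, Egr2 and Dusp5 both had a CArG box that begins at −72 and a short CRE on the minus strand that begins at −55. Dusp5 had a second CArG box directly before it, at −82, and Egr2 a second short CRE at −111. Per1 had a short CRE at −246 and an E-box at −166, and no capital stretch overlapped another. A CArG box was found before 15 of 474 genes called higher with a listed promoter (3.16%), 0.893% of genes called lower and 1.36% of all 10925. Of the immediate early genes called, Egr2 alone was among these 15. Not every gene had a listed promoter. The short CRE was found before 31.0% of genes called higher, 37.1% of those called lower and 30.2% of all, and the E-box before 11.0%, 9.38% and 9.76%. Other motifs were searched too: the full CRE TGACGTCA, the EGR site, heat shock and metal response elements (A and G forms), AGGTCA and TATAAA. The EGR site was found before 10.3% of genes called higher, 7.14% of those called lower and 5.81% of all. Shares before rises also exceeded those of all genes for the full CRE, the heat shock element and the metal G form. They were lower for the metal A form, AGGTCA and TATAAA. No share was tested against another. These matches describe letters and not binding.

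Of 21 circadian clock genes 4 rose and 0 fell (3 higher and 0 lower with the GC correction, 3 higher and 0 lower without TiO2 3). Nr1d1, the repressor REV-ERB alpha of the clock, was at 1155, 1125, 1014 and 1144 in TiO2 libraries, against 593, 633, 754 and 724 in control libraries. Every TiO2 library was above every control (log2 0.72 ± 0.11, adjusted p = 0.000406). It overlaps Thra on the other strand. Of 14 corticosteroid response genes 3 rose, Per1, the cell cycle inhibitor Cdkn1a at 134, 124, 159 and 139 in TiO2 libraries, against 104, 90.8, 95.8 and 99.3 in control libraries (log2 0.50 ± 0.12, adjusted p = 0.0121) and the EGF receptor inhibitor Errfi1 (log2 0.41 ± 0.11). Of the corticosteroid list 4 genes were called higher with the GC correction and 2 without TiO2 3. The sources used here do not give the time of day at which tissue was taken. Bhlhe40, another repressor of the clock, rose by 0.44 ± 0.12 on the log2 scale. The call of Bhlhe40 ended without TiO2 1, TiO2 2, TiO2 4, control 1 or control 4 (adjusted p 0.0561 to 0.066, and 0.009 to 0.066 over all alternatives). The call of Cdkn1a ended without TiO2 3 and with the GC correction without TiO2 3 (adjusted p 0.0553 to 0.0934, and 0.00651 to 0.0934 over all alternatives). The call of Errfi1 ended without TiO2 1, TiO2 2 or control 4 (adjusted p 0.0651 to 0.0738, and 0.00674 to 0.0738 over all alternatives).

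Among glia, genes of oligodendrocyte precursors had the highest share of calls of any list plotted, 4 of 13. Ptprz1, a receptor phosphatase also made by astrocytes, was at 7721, 7226, 7182 and 8957 in TiO2 libraries, against 6538, 4509, 5954 and 5826 in control libraries (log2 0.45 ± 0.11, adjusted p = 0.013). C1ql1, a secreted C1q family protein, was at 184, 239.9, 308 and 235 in TiO2 libraries, against 135, 162, 136 and 167 in control libraries, highest in TiO2 3 (log2 0.67 ± 0.15, adjusted p = 0.00892). Sox10 and Vcan rose by 0.50 ± 0.13 and 0.29 ± 0.08 on the log2 scale. Of the list 2 members were called without TiO2 3. The summed level of the list was 22049.7 to 24825 in TiO2 and 18448 to 20484 in control. Myelin genes varied between libraries. Mbp, myelin basic protein, was at 23532, 32770.2, 37749.9 and 23347 in TiO2 libraries, against 20283, 24351, 14840.4 and 21809.6 in control libraries, and TiO2 1 and 4 lay within the control range (log2 0.52 ± 0.20, adjusted p = 0.144). Of 20 genes of oligodendrocytes and myelin 2 rose, among them the transcription factor Myrf at 366, 434, 577 and 383 in TiO2 libraries, against 238, 282, 314 and 305 in control libraries (log2 0.61 ± 0.15, adjusted p = 0.0187). Of these genes 0 were called without TiO2 3, and 2 were called higher with the GC correction. Of the 20, 19 had a positive log2 difference, at a median of 0.38 (0.38 with the GC correction, 0.21 without TiO2 3). The call of C1ql1 ended with the GC correction without TiO2 3 (adjusted p 0.0879, and 0.000856 to 0.0879 over all alternatives). The call of Sox10 ended without TiO2 2, TiO2 3, control 1, control 3 or control 4 and with the GC correction without TiO2 3 (adjusted p 0.0506 to 0.131, and 0.00422 to 0.131 over all alternatives). The call of Vcan ended without TiO2 1, TiO2 3, control 2 or control 3 (adjusted p 0.0503 to 0.0826, and 0.0013 to 0.0826 over all alternatives). The call of Myrf ended without TiO2 2, TiO2 3 or control 1 and with the GC correction without TiO2 3 (adjusted p 0.0502 to 0.115, and 0.000286 to 0.115 over all alternatives).

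Of 16 astrocyte genes 3 rose (3 higher and 0 lower with the GC correction, 2 higher and 0 lower without TiO2 3): the glycolytic enzyme gene Aldoc (log2 0.49 ± 0.12), the transcription factor gene Sox9 (0.41 ± 0.10) and the connexin gene Gja1 (0.27 ± 0.07). Gfap, the filament protein of reactive astrocytes, was at 297, 388, 427 and 397 in TiO2 libraries, against 304, 395, 296 and 292 in control libraries and overlapped (log2 0.23 ± 0.12, adjusted p = 0.245). Of 20 genes of microglia and macrophages 2 rose and 1 fell. Cybb, which makes superoxide in phagocytes, was at 3.11, 3.05, 2.01 and 4.97 in TiO2 libraries, against 8.29, 15.5, 10.6 and 8.85 in control libraries, which in TiO2 corresponds to 3, 3, 2 and 5 reads (log2 −1.47 ± 0.42, adjusted p = 0.0371). The microglial genes Tmem119 and Laptm5 rose by 0.45 ± 0.12 and 0.50 ± 0.13, and Aif1 was at 28.0 ± 9.72 in TiO2 and 27.6 ± 8.99 in control. In either direction 0 microglial genes were called with the GC correction, and likewise 0 without TiO2 3. None of 19 genes of endothelial cells and pericytes was called, though Sox18, an endothelial transcription factor outside that list, was at 265, 275, 340.2 and 261 in TiO2 libraries, against 134, 165, 177 and 161 in control libraries (log2 0.84 ± 0.14, adjusted p = 0.000567). The call of Aldoc ended without TiO2 2, TiO2 3, control 1 or control 4 and with the GC correction without TiO2 3 (adjusted p 0.0504 to 0.0775, and 0.00311 to 0.0775 over all alternatives). The call of Sox9 ended without control 1 (adjusted p 0.051, and 0.00119 to 0.051 over all alternatives). The call of Gja1 ended without TiO2 1, TiO2 2, TiO2 4, control 1 or control 4 (adjusted p 0.0568 to 0.094, and 0.00114 to 0.094 over all alternatives). The call of Cybb ended without TiO2 1, TiO2 2, TiO2 3, control 1 or control 4 and with the GC correction, with the block and GC correction and with the GC correction without TiO2 3 (adjusted p 0.0588 to 0.14, and 0.0205 to 0.14 over all alternatives). The call of Tmem119 ended without TiO2 2, TiO2 3, control 1 or control 3 and with the GC correction, with the block and GC correction and with the GC correction without TiO2 3 (adjusted p 0.0648 to 0.228, and 0.014 to 0.228 over all alternatives). The call of Laptm5 ended without TiO2 2, TiO2 3, TiO2 4, control 1, control 2 or control 4 and with the GC correction and with the GC correction without TiO2 3 (adjusted p 0.0519 to 0.193, and 0.00236 to 0.193 over all alternatives).

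Defence against particles and oxidants was described by lists of inflammation, interferon response and oxidative defence. Of 23 inflammation genes 2 rose and 0 fell (2 higher and 0 lower with the GC correction, 1 higher and 0 lower without TiO2 3). Tgfb1, a cytokine on which microglia depend, was at 148, 156, 151 and 157 in TiO2 libraries, against 88.1, 69.1, 115 and 83.6 in control libraries (log2 0.80 ± 0.15, adjusted p = 0.00301). Cx3cl1, the neuronal chemokine fractalkine, was at 10023, 9905, 11346 and 8908 in TiO2 libraries, against 7473, 8293, 8049.5 and 8025 in control libraries (log2 0.33 ± 0.08, adjusted p = 0.0134). Nlrp3, the inflammasome sensor, was at 17.6, 17.3, 13.0 and 10.9 in TiO2 libraries, against 8.29, 13.4, 12.8 and 14.7 in control libraries and overlapped (log2 0.24 ± 0.27, adjusted p = 0.63). Of 26 interferon response genes 1 fell, Trim34a, and 0 rose (0 higher and 0 lower with the GC correction, 0 higher and 0 lower without TiO2 3). The median log2 difference of that list was −0.36, and 3 of its members had a positive one. Of 41 genes of oxidative and metal defence 2 rose and 1 fell (4.88% and 2.44%, against 4.30% and 2.10% of all genes; 1 higher and 1 lower with the GC correction, 0 higher and 1 lower without TiO2 3). Gclc, the catalytic subunit of glutathione synthesis, was at 580.0, 595, 532 and 650.4 in TiO2 libraries, against 765, 708, 750.1 and 727 in control libraries and fell (log2 −0.33 ± 0.08, adjusted p = 0.0121). Mt1, a metal-binding metallothionein, was at 3706, 4153, 3367 and 3758 in TiO2 libraries, against 2396, 3186, 2551 and 2902 in control libraries (log2 0.45 ± 0.13, adjusted p = 0.0378), and Mt2 at 318 ± 66.5 in TiO2 and 259 ± 79.8 in control (log2 0.32 ± 0.22). Gstm1, a glutathione transferase, was at 201, 270.4, 209 and 241 in TiO2 libraries, against 137, 105, 222 and 145 in control libraries, with control 3 inside the TiO2 range (log2 0.63 ± 0.16, adjusted p = 0.0226). The call of Cx3cl1 ended without TiO2 3 or control 1 and with the GC correction without TiO2 3 (adjusted p 0.0552 to 0.104, and 0.00171 to 0.104 over all alternatives). The call of Trim34a ended without TiO2 3, TiO2 4, control 2, control 3 or control 4 and with the GC correction, with the block and GC correction and with the GC correction without TiO2 3 (adjusted p 0.0518 to 0.139, and 0.0245 to 0.139 over all alternatives). The call of Mt1 ended without TiO2 1, TiO2 2, TiO2 3, TiO2 4, control 1, control 3 or control 4 and with the GC correction, with the block and GC correction and with the GC correction without TiO2 3 (adjusted p 0.063 to 0.123, and 0.00588 to 0.123 over all alternatives). The call of Gstm1 ended without TiO2 2, TiO2 3, control 1 or control 4 and with the GC correction, with the block and GC correction and with the GC correction without TiO2 3 (adjusted p 0.0564 to 0.115, and 0.000509 to 0.115 over all alternatives).

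The following genes of oxidative stress were not called, unlike Gclc, Mt1 and Gstm1 above. Hmox1, the haem oxygenase gene that NRF2 induces, was at 116, 109.8, 94.3 and 104 in TiO2 libraries, against 84.9, 94.9, 97.9 and 95.3 in control libraries (log2 0.18 ± 0.14, 95% interval −0.09 to 0.46). Nqo1, another NRF2 target, was at 14.5, 16.3, 19.1 and 14.9 in TiO2 libraries, against 20.7, 24.8, 22.3 and 30.5 in control libraries, where every TiO2 library was below every control (log2 −0.57 ± 0.22, adjusted p = 0.114). The superoxide dismutase genes Sod1 and Sod2 were at 525 ± 35.0 and 1190.5 ± 49.5 in TiO2 and at 549 ± 73.1 and 1217 ± 79.9 in control. Catalase (Cat) was at 563 ± 54.9 in TiO2 and 489 ± 73.6 in control, and glutathione peroxidase 1 (Gpx1) at 2704 ± 346 in TiO2 and 2555 ± 334 in control (SD, n = 4 each). The 95% intervals of the log2 differences were −0.24 to 0.12 for Sod1, −0.19 to 0.13 for Sod2, −0.0033 to 0.43 for Cat and −0.12 to 0.29 for Gpx1.

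Called genes of protein handling and energy went in both directions with all libraries. Fewer falls were called without TiO2 3, where falls over all genes also dropped, from 327 to 102. Bag3, a cochaperone of HSP70 that directs proteins to autophagy, was at 68.5, 76.3, 76.3 and 81.5 in TiO2 libraries, against 26.9, 23.7, 51.1 and 45.2 in control libraries (log2 1.09 ± 0.21, adjusted p = 0.00273). Of 31 heat shock and cochaperone genes 3 rose, with Cryab (log2 0.72 ± 0.16) and Hsp90ab1 (0.28 ± 0.07), and 2 fell, among them Dnaja1 (−0.39 ± 0.10). Of that list 2 were called higher and 0 lower without TiO2 3. Syvn1, the ubiquitin ligase of endoplasmic reticulum quality control, was at 424, 455, 552 and 426 in TiO2 libraries, against 234, 256, 343 and 339 in control libraries (log2 0.67 ± 0.14, adjusted p = 0.00689). Of 43 proteasome genes 4 rose and 3 fell (4 higher and 3 lower with the GC correction, 4 higher and 1 lower without TiO2 3). Psmb4, a subunit of the core particle, was at 396, 446, 484 and 383 in TiO2 libraries, against 278, 292, 279 and 238 in control libraries (log2 0.65 ± 0.10, adjusted p = 0.000249), and Psmc5 and Psmd3 of the regulatory particle rose by 0.46 ± 0.10 and 0.37 ± 0.09. Psmd8 of the proteasome had a log2 difference of −0.27 ± 0.07. The call of Cryab ended without TiO2 3 and with the block and GC correction and with the GC correction without TiO2 3 (adjusted p 0.0585 to 0.11, and 0.000196 to 0.11 over all alternatives). The call of Hsp90ab1 ended without control 1 (adjusted p 0.0522, and 0.000162 to 0.0522 over all alternatives). The call of Dnaja1 ended without TiO2 2, TiO2 3, control 1 or control 4 and with the GC correction without TiO2 3 (adjusted p 0.0511 to 0.0778, and 0.00558 to 0.0778 over all alternatives). The call of Syvn1 ended with the GC correction without TiO2 3 (adjusted p 0.0556, and 0.000254 to 0.0556 over all alternatives). The call of Psmd3 ended with the GC correction without TiO2 3 (adjusted p 0.0638, and 0.00192 to 0.0638 over all alternatives). The call of Psmd8 ended without TiO2 1 or TiO2 2 (adjusted p 0.0528 to 0.0776, and 0.00145 to 0.0776 over all alternatives).

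Of 85 nuclear-encoded respiratory chain genes 4 rose and 4 fell (3 higher and 4 lower with the GC correction, 3 higher and 0 lower without TiO2 3). Atp5d, the delta subunit of ATP synthase, was at 1376, 1571, 1621 and 1202 in TiO2 libraries, against 649.5, 783, 758 and 677 in control libraries. No library overlapped (log2 1.00 ± 0.11, adjusted p = 3.84e-06), and the gene overlaps Cbarp on the other strand. Sdhc, of complex II, was at 1317, 1383, 1414 and 1332 in TiO2 libraries, against 976, 1103, 979 and 1036 in control libraries (log2 0.41 ± 0.08, adjusted p = 0.00205), and Atp5b, the catalytic beta subunit of ATP synthase, rose by 0.35 ± 0.08. Of 12 mitochondrially encoded genes mt-Nd6, which is encoded on the strand opposite to the other mRNAs, rose, at 114, 85.4, 100.4 and 123 in TiO2 libraries, against 87.0, 43.3, 55.3 and 68.8 in control libraries (log2 0.76 ± 0.16, adjusted p = 0.00786); control 1 lay within the TiO2 range, and the gene lies opposite to mt-Nd5. In cholesterol synthesis, Ebp and Dhcr7 rose by 0.62 ± 0.12 and 0.51 ± 0.11, and in the lysosome Grn, progranulin, rose to 731 ± 102 in TiO2, against 403 ± 46.8 in control (log2 0.85 ± 0.18). Atp6v0e2, a membrane subunit of the proton pump of vesicles and lysosomes, was at 3584, 3841, 3881 and 3667 in TiO2 libraries, against 2628, 3072, 3077 and 2782 in control libraries (log2 0.38 ± 0.08, adjusted p = 0.00689). The call of Atp5b ended without TiO2 2 (adjusted p 0.0508, and 0.0016 to 0.0508 over all alternatives). The call of Grn ended without TiO2 3 and with the GC correction without TiO2 3 (adjusted p 0.0505 to 0.0672, and 5.45e-05 to 0.0672 over all alternatives).

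One list of chromatin genes held writers, readers and erasers of DNA methylation. Of 20 genes of this list 4 rose and 0 fell. Tet1, which oxidises 5-methylcytosine, was at 1220.2, 1016, 1153 and 1196 in TiO2 libraries, against 863, 567, 776 and 728 in control libraries (log2 0.66 ± 0.10, adjusted p = 0.000215), and Tet2 and Mbd5 rose by 0.32 ± 0.09 and 0.27 ± 0.07. Of the list 4 genes were called higher with the GC correction, and 3 without TiO2 3. Of 70 genes of histone methylation and acetylation 4 rose and 2 fell (5 higher and 0 lower with the GC correction, 3 higher and 1 lower without TiO2 3). Among the rises, besides Lcor, were the histone methyltransferases Kmt2c at 1454, 1312, 1417 and 1344 in TiO2 libraries, against 1195, 823, 879 and 936 in control libraries (log2 0.54 ± 0.09, adjusted p = 0.000714) and Ash1l at 2003, 1722, 1825 and 1827 in TiO2 libraries, against 1541, 1403, 1533 and 1442 in control libraries (log2 0.32 ± 0.07, adjusted p = 0.00892), both separated in every library. Of 39 chromatin remodelling genes 3 rose and 0 fell (3 higher and 0 lower with the GC correction, 1 higher and 0 lower without TiO2 3). The call of Tet2 ended without TiO2 1, TiO2 2, TiO2 3, control 3 or control 4 and in a fit of the 8 libraries alone and scaled without mitochondrial genes (adjusted p 0.0529 to 0.146, and 0.0067 to 0.146 over all alternatives). The call of Mbd5 ended without TiO2 1, control 3 or control 4 (adjusted p 0.0521 to 0.0546, and 0.00176 to 0.0546 over all alternatives).

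Splicing factors gave 6 falls and 4 rises among 71 genes (3 higher and 5 lower with the GC correction, 1 higher and 3 lower without TiO2 3). Clk1, the kinase of SR proteins, was at 1030.3, 829.6, 842 and 1119 in TiO2 libraries, against 1399.6, 1094, 1571 and 1601 in control libraries, and control 2 overlapped the TiO2 range (log2 −0.56 ± 0.11, adjusted p = 0.00554). Srsf5, an SR protein, was at 1518, 1685, 1545 and 1749 in TiO2 libraries, against 2087, 1894, 2112 and 2272 in control libraries (log2 −0.36 ± 0.08, adjusted p = 0.00892), and Hnrnpa3 fell by log2 −0.55 ± 0.12. Celf2, which regulates splicing in neurons, was at 11523, 11069, 10449.8 and 12895 in TiO2 libraries, against 9375, 7479, 9382 and 9003 in control libraries (log2 0.38 ± 0.08, adjusted p = 0.00824). Of 316 zinc finger genes 6 rose and 8 fell (1.90% and 2.53%, against 4.30% and 2.10% of all genes). The balance turned with the setting (13 higher and 4 lower with the GC correction, 5 higher and 1 lower without TiO2 3). Zfp575 was at 84.0, 105, 97.3 and 87.5 in TiO2 libraries, against 25.9, 21.7, 61.7 and 43.3 in control libraries (log2 1.38 ± 0.25, adjusted p = 0.00318), and Zfp703 and Zfp580 rose by 0.54 ± 0.10 and 0.68 ± 0.13. Zfp575 overlaps Ethe1 on the other strand. Of 81 cytosolic ribosomal protein genes 2 rose and 3 fell (1 higher and 3 lower with the GC correction, 0 higher and 0 lower without TiO2 3), and these have many processed pseudogenes. The call of Zfp580 ended with the GC correction without TiO2 3 (adjusted p 0.0571, and 4.74e-05 to 0.0571 over all alternatives).

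Neuronal cytoskeleton genes were among the called genes with the most reads. Map2, the microtubule protein of dendrites, was at 11427, 10396, 10560.2 and 11185 in TiO2 libraries, against 9017, 6969, 8264 and 8109 in control libraries, with no overlap (log2 0.43 ± 0.08, adjusted p = 0.00125). Map1b, a microtubule protein of growing axons that declines as neurons mature, was at 12295, 12483, 13622 and 12734 in TiO2 libraries, against 15398, 15972, 15565 and 16716 in control libraries and fell (log2 −0.32 ± 0.07, adjusted p = 0.00755). Tuba4a, an alpha tubulin, was at 4984, 5188, 4746 and 5265 in TiO2 libraries, against 3006, 3759, 3312 and 3273 in control libraries (log2 0.60 ± 0.09, adjusted p = 0.000197), and Tubb2b, a beta tubulin, rose by 0.38 ± 0.08. Of 60 genes of cytoskeleton and axonal transport 7 rose and 2 fell, and with the GC correction 4 were called higher and 2 lower. Apc, which binds beta-catenin and microtubule ends, was at 13549, 14411, 15874 and 13874 in TiO2 libraries, against 12387, 10276, 10840.1 and 10687 in control libraries (log2 0.39 ± 0.09, adjusted p = 0.00879). Other called genes among the 10 with the most reads were Tspan7 (log2 0.25 ± 0.07), a tetraspanin of neurons, Rgs7bp (0.35 ± 0.09), a membrane anchor of RGS proteins, and Ywhag (0.26 ± 0.07), a 14-3-3 protein, together with Celf2, Nrgn and Cx3cl1. Tcf7l1, a Wnt pathway transcription factor, was at 135, 132, 159.6 and 154 in TiO2 libraries, against 54.9, 55.7, 88.3 and 89.5 in control libraries (log2 1.03 ± 0.21, adjusted p = 0.00789), and Col19a1, a collagen made by neurons, at 92.3, 107, 80.3 and 98.5 in TiO2 libraries, against 71.5, 47.5, 24.5 and 39.3 in control libraries (log2 1.12 ± 0.23, adjusted p = 0.00584). Akap10, an anchor of protein kinase A, rose by 0.49 ± 0.10. The call of Tspan7 ended without TiO2 1, TiO2 2, TiO2 3, control 1, control 3 or control 4 and by edgeR, by edgeR with DESeq2 size factors and without the robust option (adjusted p 0.0532 to 0.11, and 0.00271 to 0.11 over all alternatives). The call of Rgs7bp ended without TiO2 1, TiO2 2 or control 3 (adjusted p 0.0543 to 0.06, and 0.00102 to 0.06 over all alternatives). The call of Ywhag ended without TiO2 2, TiO2 3, control 1 or control 4 and with the GC correction without TiO2 3 (adjusted p 0.06 to 0.0818, and 0.00113 to 0.0818 over all alternatives). The call of Tcf7l1 ended with the GC correction without TiO2 3 (adjusted p 0.0571, and 0.00015 to 0.0571 over all alternatives).

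**Figure D5:**
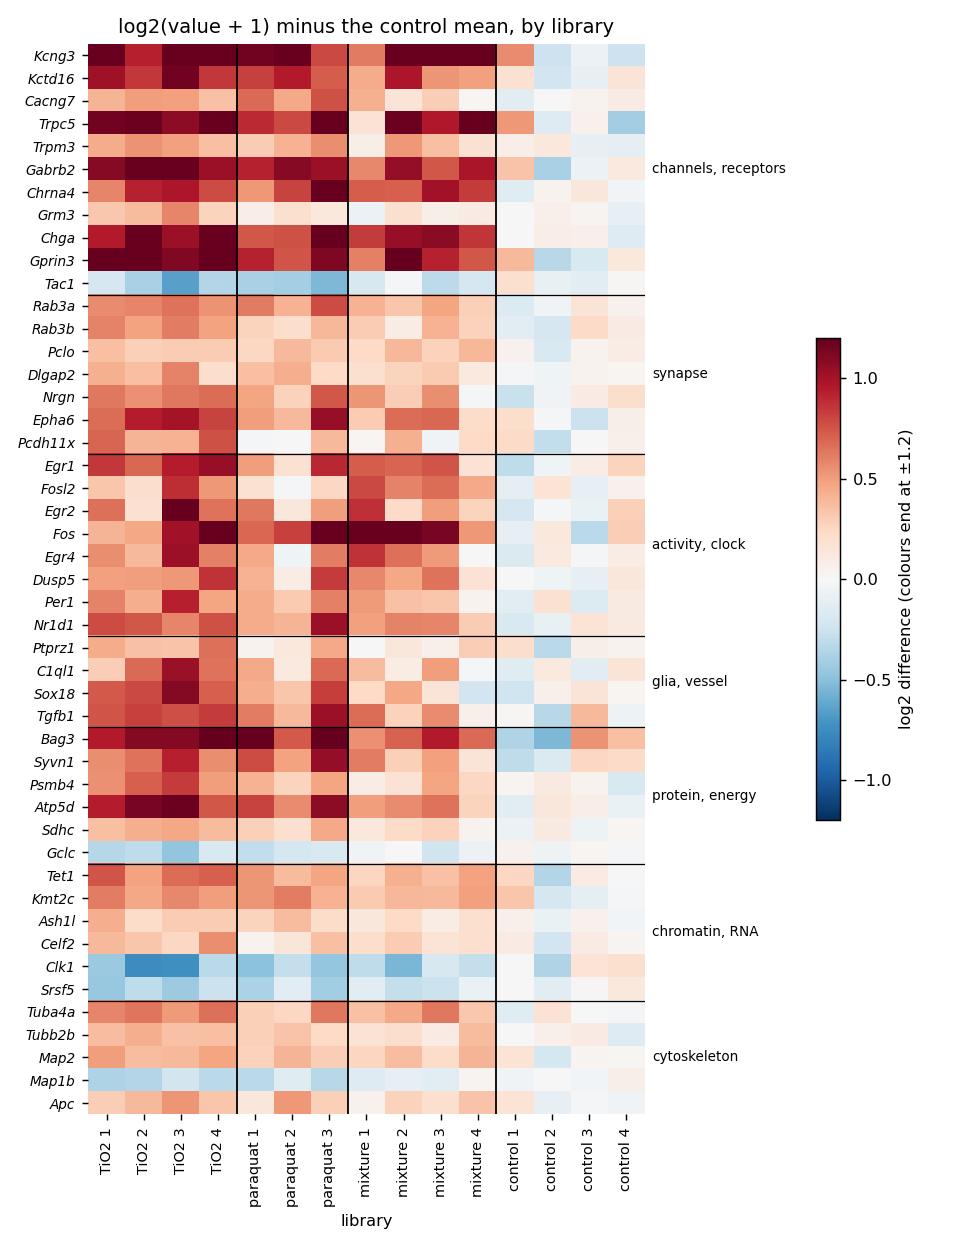
Each row is a gene named in the text and each column a library of TiO2, paraquat, the mixture or control; colour gives the log2(value + 1) minus the mean of the 4 control libraries, red for higher and blue for lower. In the TiO2 columns all but 5 genes are red, the 5 being Tac1, Gclc, Clk1, Srsf5 and Map1b; Kcng3 in TiO2 3 reaches 1.64, past the end of the colour scale.

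The other exposures were compared with TiO2 directly. By limma 0 of 15556 genes (0.00%) differed between TiO2 and paraquat, where 997 had an unadjusted p under 0.05, edgeR called 0 and DESeq2 called 15. Likewise 0 genes (0.00%) differed between TiO2 and the mixture, with 1768 at an unadjusted p under 0.05, edgeR called 0 and DESeq2 called 55. A difference that misses the threshold does not show that exposures act alike. Without TiO2 3 the fit called 11 genes between TiO2 and paraquat, and without paraquat 2 it called 2, while without TiO2 4 it called 14 between TiO2 and the mixture. For Xkr4 the paraquat libraries were at 218, 199.9 and 313 and the mixture libraries at 189, 279, 235 and 222, and for Oprm1 they were at 67.5, 54.8 and 88.9 and at 40.6, 73.8, 67.6 and 76.1. Egr1 was at 4163, 3341 and 5502 after paraquat and at 4845, 4769.7, 4970.1 and 3320.2 after the mixture. All exposures share the same 4 control libraries.

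By limma, the genes with the smallest p between TiO2 and paraquat were B930095G15Rik, Gpx6 and Osbpl3. B930095G15Rik, also called lower than control, was at 224, 259, 310.1 and 263 in TiO2, 364, 439 and 374 after paraquat and 304, 327, 384 and 347 in control (TiO2 minus paraquat, log2 −0.57 ± 0.11, limma adjusted p = 0.119). Gpx6, a glutathione peroxidase, was at 439.9, 399.6, 372 and 396 in TiO2, 327, 277 and 253 after paraquat and 419, 455, 443 and 457 in control (log2 0.50 ± 0.09, limma adjusted p = 0.119). Osbpl3, an oxysterol-binding protein, was at 774, 659, 670.4 and 695 in TiO2 and 418, 528 and 494 after paraquat (log2 0.55 ± 0.11, limma adjusted p = 0.119). In each case all paraquat libraries lay on the same side of all TiO2 libraries, above for the first and below for the other two. Against the mixture Sox18 and Ccpg1 were among them. Sox18 was at 265, 275, 340.2 and 261 in TiO2 and 187, 219, 176 and 135 after the mixture, all below the TiO2 libraries (TiO2 minus mixture, log2 0.68 ± 0.14, limma adjusted p = 0.141). Ccpg1, a receptor of reticulum autophagy, was at 150.5, 139, 131 and 188 in TiO2 and 232, 241, 223 and 219 after the mixture (log2 −0.60 ± 0.12, limma adjusted p = 0.141).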

How the data were processed

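RNA of striatum was extracted with the NucleoSpin RNA II kit, converted to libraries (Lexogen SENSE total RNA kit) and sequenced on a NextSeq500, per the labels' protocols. The submitters' processing notes name the mm10 genome, DESeq2 2.1.8.3 and Bowtie2 2.3.2.2. The counter, the annotation and the use of strand are not given. The deposited table holds a normalised signal, read counts divided by the library's size factor: in all 15 libraries 100% of values were whole multiples of 1 step within 0.001 reads (in 4 libraries the step is too near 1 for this to be a test). Reads were recovered from the steps for the count tests only.

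The main test was limma 3.58.1 (trend and robust options, R 4.3.3) on log2(value + 1), which understates changes of low genes. It used 1 fit of all 15 libraries with a mean per group, and filterByExpr of edgeR 4.0.16 kept 15556 of 15569 genes. P-values were adjusted over all genes tested by Benjamini-Hochberg, with calls at 0.05. Errors of log2 differences are standard errors, and others are SDs. The pipeline was first tested on simulated data. Groups came from the treatment labels. The labels do not say whether replicate numbers pair the libraries, and the main test did not use them as pairs. Alternatives were other pseudocounts, filters and scalings, voom, edgeR, DESeq2 1.42.0, a loess GC correction (span 0.3), a replicate block and each library left out; the GC correction without TiO2 3 was added after the data were seen. Gene classes and coordinates came from GENCODE M21 on GRCm38, where all 15569 symbols matched, and promoters from RefSeq. Of the 15569 genes 4652 have exons opposite another gene, so that their reads cannot be told apart without strand.

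The gene lists and named genes were chosen with earlier results of these data known. Named genes were the 12 largest rises and falls with a mean of at least 1 CPM, up to 4 called members of a list by p, the 10 called genes with the most reads, up to 8 called noncoding genes by p, the 3 smallest p against each other exposure, and a fixed set of striatal, glial and stress genes, of which Pvalb, Il1b and Tnf are not analysed here. Lists given by counts only are not all named, and some genes that this rule names are not reported here.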

Additional observations from a re-analysis of the deposited data

Results flagged for a closer look

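In 13 groups of 4 libraries (of 298 examined), the gap between 1 library and its nearest neighbour, as a share of the group's range, passed Dixon's critical value, where chance alone gives about 1 in 20 groups. In TiO2 these were Dusp5 at 204 (library 4, the highest), Gm43843 at 226 (library 2, the lowest) and Tubb2b at 984 (library 2, the highest). In control library 1 they were Kcna3 at 30.0, Klhl11 at 78.7, Cyp26b1 at 16.6, Gm44846 at 36.3 and Gm43843 at 137, each the highest control value, and Cacng8 at 132, the lowest. In control library 2 they were Gfap at 395, Psmd3 at 513 and Sod1 at 657, each the highest. In control library 3 Akap10 was the highest, at 142.

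For 3 named genes every TiO2 library lay on 1 side of the control mean and every library of another exposure on the other. B930095G15Rik and Ccpg1 were named for a small p between exposures, which favours such a pattern. The share of all genes with this pattern was not counted. B930095G15Rik was lower in TiO2 and higher after paraquat, with a log2 difference of −0.57 between TiO2 and paraquat, and likewise higher after the mixture, with −0.49 between TiO2 and the mixture. Ccpg1 was lower in TiO2 and higher after the mixture, a log2 difference of −0.60. Adora2a was higher in TiO2 and lower after the mixture, a log2 difference of 0.33. By limma none of these direct differences passed the adjusted threshold, and both exposures were set against the same control libraries.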

How the results depend on the processing

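Against control, counts of calls lay between 878 and 1183 under other pseudocounts, filters, scalings, voom, edgeR, DESeq2, the GC correction and a fit of the 8 libraries alone. Each library left out in turn gave 467 to 1397, and the GC correction without TiO2 3 gave 544. With replicate number as a block the fit called 1354 genes (858 higher, 496 lower) and with the block and GC correction 1083. Same-numbered TiO2 and control libraries 1 to 4 correlated at 0.25, −0.044, −0.12 and 0.20, and differently numbered ones at −0.17 to 0.19. These values do not settle whether the number marks pairs, and the main test did not treat it as a pairing. Between TiO2 and paraquat the counts were 15 by DESeq2, 3 with the block, 4 with the block and GC correction, 1 with the GC correction without TiO2 3, and 0 to 11 with a library left out. Between TiO2 and the mixture they were 55 by DESeq2, 6 with the GC correction, 5 with the block, 24 with both, and 0 to 14 with a library left out. The causes were not tested.

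Of 124 called genes that the text names, 81 kept their call without any 1 library and 71 under every alternative that tested them. No call among them reversed. The largest falls that are counted but not named above are left out of the 124. Their calls ended when some single libraries were left out, so the counts kept do not hold for every gene that the naming rule picks. The genes that changed sign were not called. With the GC correction, blocked or not, log2 differences became −0.031 for Aif1, −0.012 for Chat, −0.050 for Gpx1, 0.0066 for Osbpl3, −0.087 for Ppp1r1b and 0.077 for Sod2. With that correction and without TiO2 3 they became −0.14 for Chat, −0.071 for Gpx1, 0.0042 for Osbpl3, −0.085 for Ppp1r1b, 0.0038 for Sod1 and 0.045 for Sod2. Scaling without mitochondrial genes gave −0.016 for Aif1. With a library left out, values ran over both signs, from −0.18 to 0.22 for Aif1, −0.077 to 0.17 for Chat, −0.12 to 0.013 for Osbpl3, −0.095 to 0.033 for Sod1, −0.079 to 0.035 for Th and −0.096 to 4.20 for Xist. Depth limits genes near 3 reads, such as Cybb.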
